A study of Mus musculus with 37 samples.

Results

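The genes described here carry calcium between the cytosol and its stores, bind it, or act on it. The list held 32 genes, of which 29 were among the 18193 with a probe set of their own on the array, and it was split by role into pumps and exchangers, release channels, store-operated entry with mitochondrial uptake, buffers with calmodulins, and kinases with the phosphatase calcineurin. Each gene was read by 1 probe set, a group of short probes against 1 transcript stretch. This was the probe set naming that gene alone with the highest mean over all 37 arrays. For Itpr1, Calm2 and Calm3 no probe set carried the symbol alone, and they were not analysed here. The other 29 passed the filter on low signal (a log2 group mean of at least 3.599 in 1 group or more), as did 13078 genes in all.

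Temporal lobes came from wild-type mice (WT) and from mice lacking Wfs1 (WFS1 KO) on backgrounds labelled C57 and 129SV, which the design text gives as C57B6 and 129S6. Affymetrix mouse expression arrays were run on 9 samples of C57 WT, 9 of C57 KO, 9 of 129 WT and 10 of 129 KO. Values are log2 signals, so a difference of 1 is a doubling. Age, sex, litter and the targeted part of Wfs1 are not given in the sources used here, and nothing in the labels ties each array to its own animal. The p-values therefore reflect only how arrays of a group vary. The number of arrays limits the precision, and in tissue of mixed cells fewer cells of a type and less RNA per cell cannot be told apart.

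In a neuron at rest, calcium is kept low in the cytosol by ATP-driven pumps in the plasma membrane and the endoplasmic reticulum (ER) and by sodium-calcium exchangers. Inositol trisphosphate receptors and ryanodine receptors release it from the ER, Stim proteins sense an emptied store and open Orai channels, and mitochondria take calcium up through the uniporter. Buffers such as calbindin, calretinin and parvalbumin shape the signal, which calmodulin passes to its kinases and to calcineurin. Wolframin, the product of Wfs1, is an ER membrane protein that has been linked to the filling of this store.

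Wfs1 itself averaged 9.32 in C57 WT against 3.03 in C57 KO, and 9.33 in 129 WT against 3.11 in 129 KO, so its level followed the genotype labels. Arrays varied in a striatum score, the mean deviation of 15 striatal transcripts such as Drd1, Drd2 and Penk from their overall means. In C57 that score was 0.21 ± 0.31 for WT and -0.26 ± 0.36 for KO (SD, n = 9 each), and the KO mean was lower for 15 of 15 markers. In 129 it was 0.11 ± 0.21 for WT and -0.06 ± 0.31 for KO (SD, n = 9 against 10), again with 15 of 15 markers lower. Arrays also fell into sets of 19 and 18 found from residual values of 40 variable genes, none of them a calcium gene of the list. Each group had 4 or 5 arrays in each set, with its lower sample numbers in set 1. Array 73 of 129 WT had the largest difference between the 3' and 5' actin probes, 2.76, where other arrays lay between 0.91 and 1.94.

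The first question was whether transcripts of the calcium genes differed between KO and WT in C57. By limma with Benjamini-Hochberg adjustment over the 13078 genes, 0 of 29 passed at an adjusted p under 0.05, where 0.107% of all genes did (0.0612% higher in KO and 0.0459% lower). At an unadjusted p under 0.05 there were 4 of 29, or 13.8%, where 6.37% of all genes had one. These 4 were the release channel Ryr3, the buffer Calb2, the plasma membrane pump Atp2b1 and the entry channel Orai1, and none of them passed after adjustment. The median difference of the 29 was -0.0021 and that of all genes 0.021. For 22 of 29, or 75.9%, the 95% interval of the difference lay within 0.3 of 0, as it did for 84.4% of all genes.

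In 129, limma called 0 of 29 for KO against WT, where 0.00765% of all genes were called, and 0 of 29 had an unadjusted p under 0.05, where 2.13% of all genes had one. The median was -0.010 against -0.0037 over all genes, and the differences ran from -0.19 for Pvalb to 0.19 for Slc8a1. In this strain 23 of 29, or 79.3%, had an interval within 0.3 of 0, against 89.2% of all genes. Over both strains together 0 of 29 passed (0.0229% of all genes), the same 4 genes as in C57 had an unadjusted p under 0.05 (4.95% of all genes), and 27 of 29 intervals lay within 0.3 of 0 (96.7% of all genes). The KO differences of the 2 strains were compared directly as well. None of the 29 passed in that test (0.0153% of all genes) and none had an unadjusted p under 0.05 (3.34% of all genes).

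**Figure D1:**
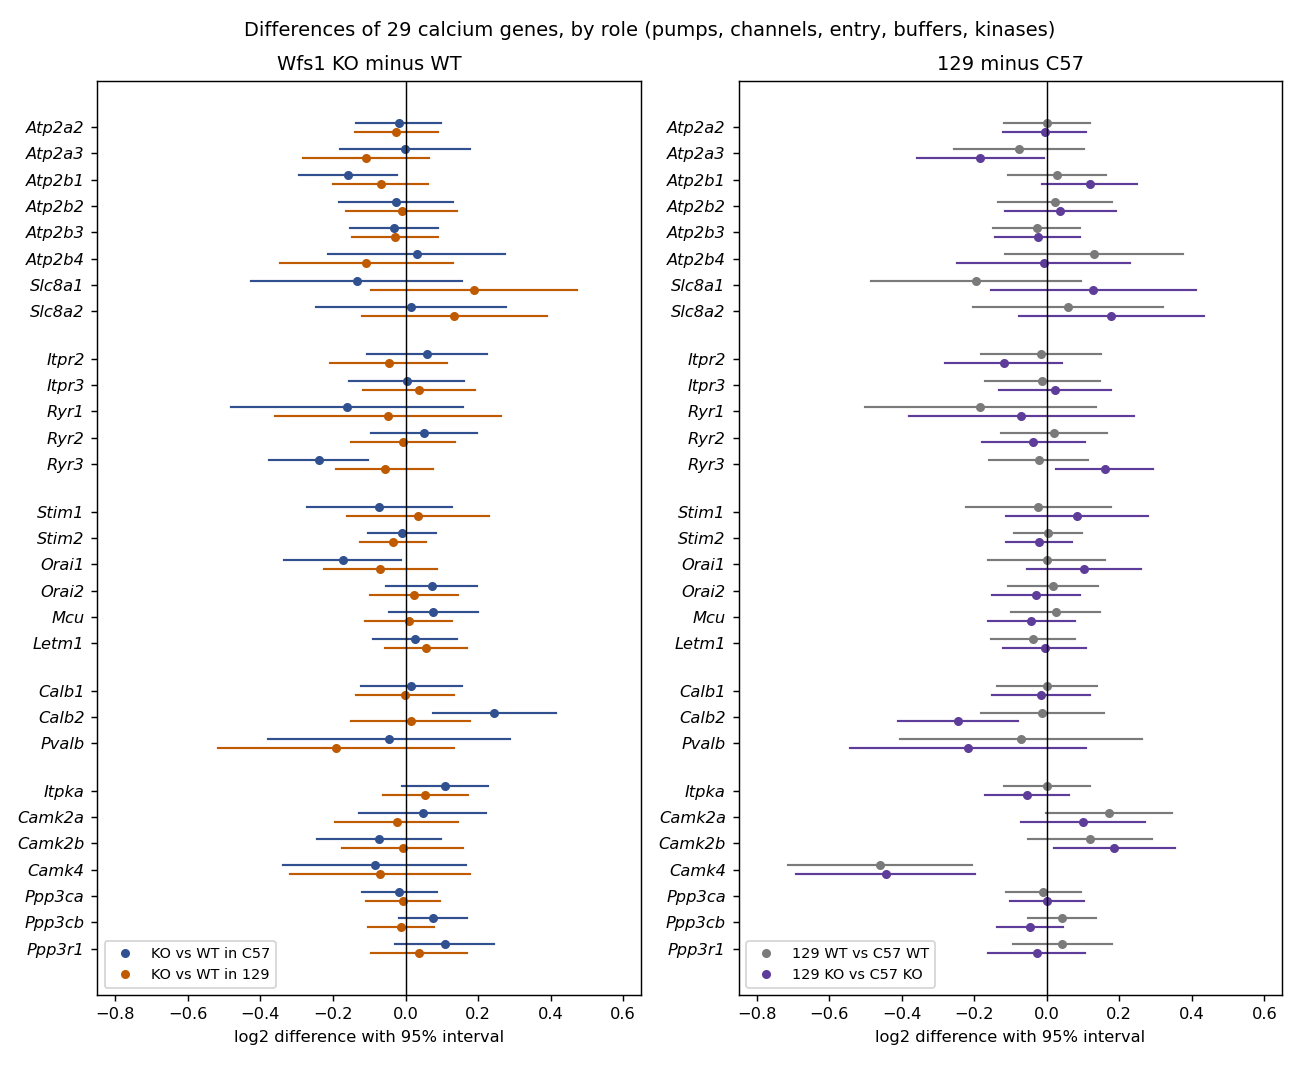
Log2 differences (horizontal axis) with their 95% intervals for the 29 calcium genes measured, grouped from top to bottom as pumps and exchangers, release channels, entry and mitochondrial uptake, buffers, and kinases with calcineurin. The left panel gives KO minus WT in C57 and in 129, where no gene passed the adjusted test and Ryr3, Calb2, Atp2b1 and Orai1 lie farthest from 0 relative to their error in C57. The right panel gives 129 minus C57 within WT and within KO, where Camk4 lies lowest at -0.46 and -0.44.

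Among pumps and exchangers, 8 genes were measured. Atp2a2, the main ER calcium pump of neurons, differed by -0.02 (SE 0.06) between KO and WT in C57 and by -0.03 (SE 0.06) in 129. Its relative Atp2a3 differed by -0.0021 (SE 0.09) and -0.11 (SE 0.09). The intervals of Atp2a2 ran from -0.14 to 0.10 in C57 and from -0.14 to 0.09 in 129, and those of Atp2a3 from -0.18 to 0.18 and from -0.28 to 0.07, all including 0.

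Atp2b1 encodes a plasma membrane calcium pump of neurons and many other cells. Its signal ran from 10.17 through a median of 10.48 to 10.75 in C57 WT and from 10.19 through 10.35 to 10.47 in C57 KO. All 9 C57 KO arrays lay below the WT median, but none lay below the lowest WT array, number 37. The difference was -0.16 (SE 0.07, unadjusted p = 0.0221, limma adjusted p = 0.692). In 129 the signal ran from 10.32 through 10.51 to 10.69 in WT and from 10.16 through 10.48 to 10.76 in KO, a difference of -0.07 (SE 0.07). There 3 of 10 KO arrays lay below every WT array and 1 of 10 above. The other probe sets of Atp2b1 differed by -0.41 (SE 0.34) and -0.11 (SE 0.10) in C57 and by 0.13 (SE 0.33) and -0.0078 (SE 0.10) in 129.

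Within groups, Atp2b1 went up and down with the striatum score. After group means were removed, Pearson's r over the 37 arrays was 0.68 and Spearman's rho 0.68 (permutation p = 2e-05, adjusted p = 0.0012 over the 116 pairs of 29 genes with 4 tissue and RNA measures). It was 0.61 without the 2 arrays farthest from the median score, 0.84 within set 1 (n = 19) and 0.52 within set 2 (n = 18). With the score as a covariate in limma, the KO difference of Atp2b1 in C57 went from -0.16 to -0.01 (SE 0.06). Atp2b2, a pump found largely in neurons, had r = 0.62 and rho = 0.69 with the score (adjusted p = 0.0012), with 0.67 and 0.64 within the sets, but its KO difference was -0.03 (SE 0.08) in C57 and -0.01 (SE 0.08) in 129. In limma fits of the score adjusted over all genes, Atp2b1 and Atp2b2 passed, 2 of 29 or 6.90%, where 1.99% of the 13063 genes other than the score's own markers did. Atp2b3, a pump largely of neurons, differed by -0.03 (SE 0.06) in both strains.

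Atp2b4, a plasma membrane pump outside neurons as well as in them, had one of the wider spreads. It ran from 5.66 through 6.20 to 6.66 in C57 WT, from 5.58 through 6.28 to 6.53 in C57 KO, from 6.15 through 6.27 to 6.55 in 129 WT and from 5.62 through 6.27 to 6.73 in 129 KO. All groups overlapped. KO and WT differed by 0.03 (SE 0.12) in C57 and by -0.11 (SE 0.12) in 129. The sign of the C57 value was not stable, since it was -0.13 (SE 0.13) with the striatum score as a covariate and -0.11 within array set 1.

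Slc8a1 and Slc8a2 encode sodium-calcium exchangers, which trade sodium entering the cell for calcium leaving it. Slc8a1 ran from 7.84 through 8.26 to 8.63 in C57 WT and from 7.79 through 7.96 to 8.63 in C57 KO, with a difference of -0.13 (SE 0.14, limma adjusted p = 0.949). In 129 it ran from 7.11 through 8.18 to 8.49 in WT and from 7.81 through 8.23 to 8.56 in KO, with a difference of 0.19 (SE 0.14, limma adjusted p = 1.00). The KO differences of the strains thus had opposite signs, and their difference of -0.32 had an interval from -0.73 to 0.08. The lowest 129 WT value was that of array 73, and without it the 129 difference was 0.075. A second probe set of Slc8a1 above the filter differed by -0.14 (SE 0.06) in 129 and another, below the filter, by -0.19 (SE 0.08), both opposite to the brightest. Slc8a2 differed by 0.015 (SE 0.13) in C57 and 0.13 (SE 0.13) in 129.

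Of the release channels, 5 were measured, and Ryr3 had the smallest p of the whole list for KO against WT in C57. Ryr3 is the ryanodine receptor known from hippocampus and striatum. Its signal ran from 6.90 through 7.04 to 7.40 in C57 WT and from 6.74 through 6.85 to 7.05 in C57 KO. In 8 of 9 KO arrays it lay below the WT median and in 5 of 9 below every WT array, so the groups overlapped in part. The difference was -0.24 (SE 0.07, unadjusted p = 0.0011, limma adjusted p = 0.309), which did not pass.

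In 129, Ryr3 ran from 6.90 through 7.11 to 7.28 in WT and from 6.72 through 7.05 to 7.33 in KO. The KO range covered that of WT, with a difference of -0.06 (SE 0.07). The C57 and 129 differences differed by -0.18 (SE 0.09, unadjusted p = 0.0619, limma adjusted p = 0.999). In C57 the difference was -0.37 within array set 1 and -0.14 within set 2. On the other 2 probe sets of Ryr3 it was -0.20 (SE 0.12) and -0.05 (SE 0.08) in C57, and 0.18 (SE 0.12) and -0.08 (SE 0.07) in 129. On the first of these the C57 and 129 differences differed by -0.38 (SE 0.17, unadjusted p = 0.0295, limma adjusted p = 0.999).

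The striatum score moved with Ryr3 too. With group means removed, r was 0.52 and rho 0.56 (permutation p = 0.0013, adjusted p = 0.0193), r without the 2 outermost arrays was 0.52, and it was 0.64 within set 1 and 0.22 within set 2. With the means of each group by set removed, r was 0.45 and its adjusted p 0.129, and adjusted over all genes by limma it did not pass (adjusted p = 0.0761). With the score as a covariate the Ryr3 difference in C57 was -0.12 (SE 0.07, unadjusted p = 0.0826, limma adjusted p = 0.690). The score itself differed by -0.47 between C57 KO and C57 WT, with 15 of 15 markers lower. Fits with the score as a covariate therefore cannot tell striatal tissue content from a genotype difference in striatal transcripts. The part of striatal tissue in the Ryr3 and Atp2b1 values was not tested.

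**Figure D2:**
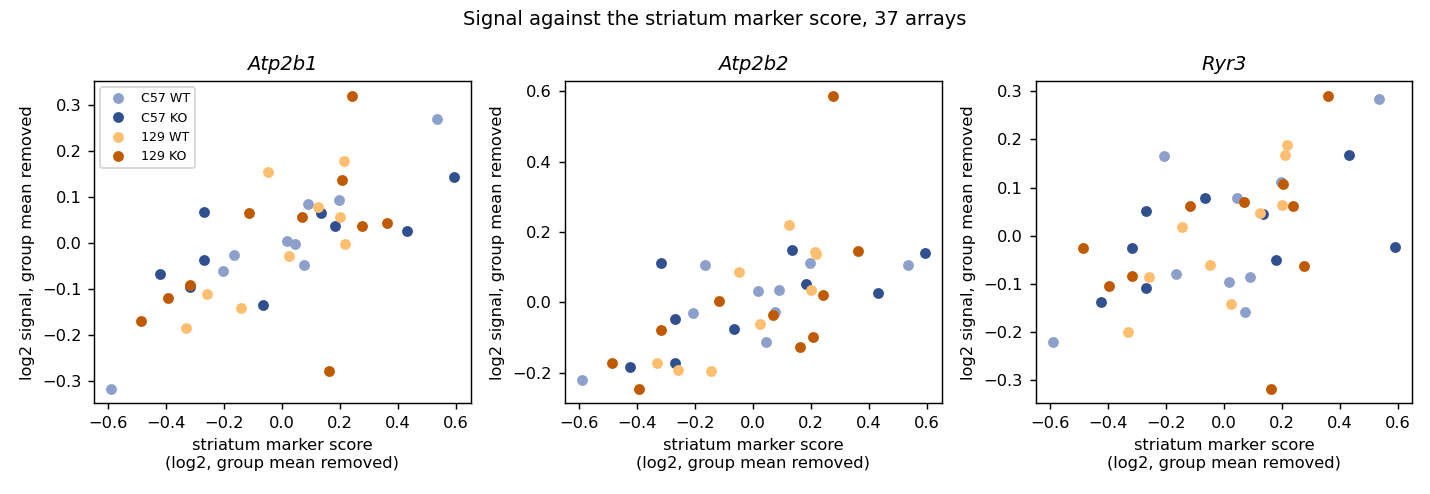
Log2 signal of Atp2b1, Atp2b2 and Ryr3 (vertical axes, group means removed) against the striatum marker score (horizontal axis, log2, group means removed) in the 37 arrays, coloured by group. Points climb from left to right, with r of 0.68 for Atp2b1, 0.62 for Atp2b2 and 0.52 for Ryr3.

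Ryr1, the skeletal muscle type of ryanodine receptor, which is also present in brain, varied widely between arrays. It ran from 4.19 through 4.69 to 5.36 in C57 WT, from 3.82 through 4.59 to 4.98 in C57 KO, from 4.15 through 4.58 to 4.77 in 129 WT and from 3.52 through 4.54 to 4.89 in 129 KO. The lowest value belonged to array 59. KO and WT differed by -0.16 (SE 0.16) in C57 and by -0.05 (SE 0.15) in 129, where it was 0.056 without array 59. Ryr2, the cardiac type and a common form in brain, differed by 0.05 (SE 0.07) and -0.0068 (SE 0.07). The inositol trisphosphate receptors Itpr2 and Itpr3 differed by 0.06 (SE 0.08) and 0.0028 (SE 0.08) in C57 and by -0.05 (SE 0.08) and 0.04 (SE 0.08) in 129. Itpr3 stood close to the filter, with group means of 3.62 to 3.66.

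Store-operated entry and mitochondrial uptake were represented by 6 genes. Orai1 forms the entry channel in the plasma membrane. It ran from 4.98 through 5.20 to 5.48 in C57 WT and from 4.87 through 5.00 to 5.27 in C57 KO. The KO arrays lay below the WT median in 8 of 9 cases and below every WT array in 4 of 9. The difference was -0.17 (SE 0.08, unadjusted p = 0.0359, limma adjusted p = 0.730), and it was -0.07 within array set 1 and -0.25 within set 2. In 129, Orai1 ran from 5.14 through 5.17 to 5.35 in WT and from 4.85 through 5.07 to 5.62 in KO. There 6 of 10 KO arrays lay below every WT array and 2 of 10 above every one, with a difference of -0.07 (SE 0.08). A second Orai1 probe set, with means near the filter, differed by -0.04 (SE 0.08) in both strains.

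Orai2, a brain-enriched relative, ran from 6.06 through 6.19 to 6.56 in C57 WT and from 6.13 through 6.31 to 6.47 in C57 KO. It differed by 0.07 (SE 0.06), and in 129 by 0.02 (SE 0.06), from 6.10 through 6.27 to 6.42 in WT and from 5.96 through 6.30 to 6.48 in KO. The groups overlapped in both strains. Its correlation with the striatum score was r = 0.49 and rho = 0.51 (adjusted p = 0.0436), with 0.51 and 0.49 within the sets. With the means of each group by set removed r was 0.50 and its adjusted p 0.126, and adjusted over all genes by limma it did not pass (adjusted p = 0.116). With the score as a covariate the C57 difference of Orai2 was 0.17 (SE 0.06, unadjusted p = 0.0118, limma adjusted p = 0.505).

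The ER calcium sensors Stim1 and Stim2 differed by -0.07 (SE 0.10) and -0.01 (SE 0.05) in C57 and by 0.03 (SE 0.10) and -0.04 (SE 0.05) in 129. Mcu, the pore of the mitochondrial uniporter, differed by 0.08 (SE 0.06) and 0.0090 (SE 0.06). Letm1, an ion exchanger of the inner mitochondrial membrane, differed by 0.03 (SE 0.06) and 0.06 (SE 0.06). Stim2 had one of the smallest spreads of the list, an SD within groups of 0.087, so its interval in 129, from -0.13 to 0.06, was among the narrowest.

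Among buffers, 3 genes were measured, each a marker of a class of neurons as well as a calcium-binding protein. Calb2 encodes calretinin, found in interneurons and in some excitatory cells. It ran from 7.39 through 7.63 to 7.80 in C57 WT and from 7.51 through 7.86 to 8.10 in C57 KO. In 8 of 9 KO arrays it was above the WT median and in 6 of 9 above every WT array, with overlap in the rest. The difference was 0.24 (SE 0.08, unadjusted p = 0.0058, limma adjusted p = 0.531) and did not pass. Within the array sets it was 0.27 and 0.24.

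In 129, Calb2 ran from 7.30 through 7.61 to 7.78 in WT and from 7.27 through 7.59 to 7.87 in KO. The medians nearly coincided, and the difference was 0.014 (SE 0.08). The C57 difference exceeded the 129 difference by 0.23 (SE 0.12, unadjusted p = 0.0557, limma adjusted p = 0.999), with an interval from -0.01 to 0.47. With the striatum score as a covariate the C57 difference was 0.18 (SE 0.10). A score over 8 interneuron markers, such as Gad1, Sst and Vip, was -0.04 ± 0.08 for C57 WT and 0.02 ± 0.08 for C57 KO (SD, n = 9 each), with 4 of 8 markers lower.

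**Figure D3:**
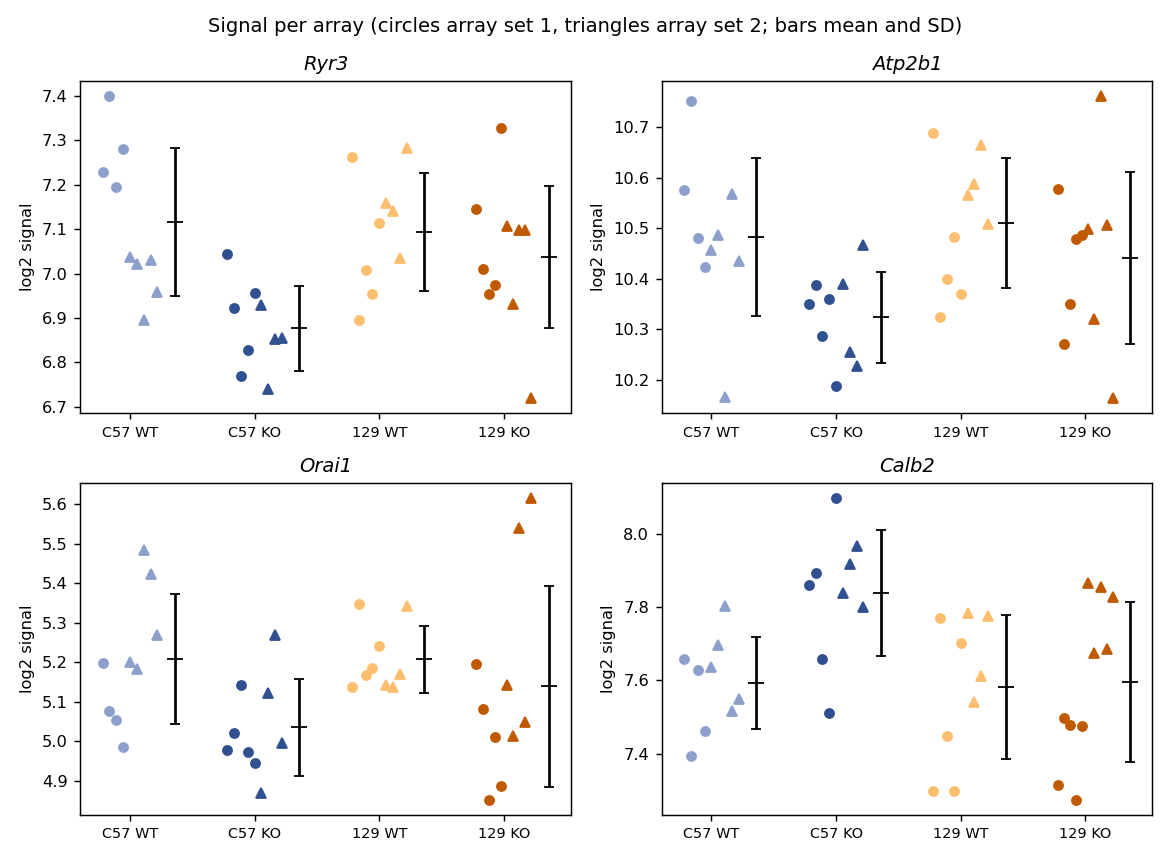
Log2 signal per array of Ryr3, Atp2b1, Orai1 and Calb2 in the 4 groups, with circles for array set 1, triangles for set 2, and bars for the group mean and SD. In C57 the KO arrays sit lower for Ryr3, Atp2b1 and Orai1 and higher for Calb2, each with overlap, and in 129 the KO arrays reach both below and above the WT arrays.

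Pvalb encodes parvalbumin, the buffer of fast-spiking interneurons, and had the largest spread of the 29, an SD within groups of 0.37. It ran from 6.97 through 7.31 to 7.64 in C57 WT, from 6.76 through 7.23 to 7.80 in C57 KO, from 6.69 through 7.20 to 7.59 in 129 WT and from 6.31 through 6.97 to 7.98 in 129 KO. The 129 KO arrays covered more than the range of the other groups, with 2 of 10 below every 129 WT array and 2 of 10 above. KO and WT differed by -0.04 (SE 0.17) in C57 and by -0.19 (SE 0.16) in 129. Calb1, or calbindin, differed by 0.016 (SE 0.07) in C57 and by -0.00074 (SE 0.07) in 129, with an interval from -0.12 to 0.15 in C57 and from -0.14 to 0.13 in 129.

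The 7 kinases and calcineurin subunits gave no gene with an unadjusted p under 0.05 in either strain. Itpka, a neuronal kinase that phosphorylates inositol trisphosphate, differed by 0.11 (SE 0.06, unadjusted p = 0.0702) in C57 and by 0.06 (SE 0.06) in 129. Camk2a and Camk2b, the subunits of the abundant synaptic kinase, differed by 0.05 (SE 0.09) and -0.07 (SE 0.08) in C57 and by -0.02 (SE 0.08) and -0.0071 (SE 0.08) in 129. The calcineurin catalytic subunits Ppp3ca and Ppp3cb differed by -0.02 (SE 0.05) and 0.08 (SE 0.05) in C57 and by -0.0073 (SE 0.05) and -0.012 (SE 0.05) in 129. Ppp3r1, the regulatory subunit, differed by 0.11 (SE 0.07) and 0.04 (SE 0.07). Camk4, a kinase of the nucleus that phosphorylates CREB, differed by -0.09 (SE 0.13) and -0.07 (SE 0.12).

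The 29 genes were covered by 80 probe sets, 51 of them other than the brightest, and 43 of these 51 were above the filter. Of the 51, 0 passed for KO against WT in either strain by limma. Of all genes, read by 1 probe set each, 0.107% passed in C57 and 0.00765% in 129. At an unadjusted p under 0.05 there were 0 of 51 in C57 (6.37% of all genes). In 129 there were 2 of 51 (2.13% of all genes), both of Slc8a1.

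The next question was whether the strains differed. Between WT groups 1 of 29 was called, or 3.45%, where 2.06% of all genes were called, and between KO groups again 1 of 29, where 3.06% were. It was Camk4 both times, lower in 129. Of all genes, 0.971% were higher and 1.09% lower in 129 WT, and 0.902% higher and 2.16% lower in 129 KO. At an unadjusted p under 0.05 there was 1 of 29 between WT groups (11.6% of all genes) and there were 5 of 29 between KO groups (12.3% of all genes). Median differences of 129 minus C57 were 0.00053 in WT and -0.015 in KO, and over all genes 0.015 and -0.0071. For 22 of 29 the interval lay within 0.3 of 0 between WT groups and for 21 of 29 between KO groups, shares of 75.9% and 72.4%, against 80% and 80.8% of all genes.

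Camk4 on its brightest probe set ran from 8.43 through 9.31 to 9.64 in C57 WT and from 8.57 through 8.77 to 9.21 in 129 WT. All 9 129 WT arrays lay below the C57 WT median, though none below the lowest C57 WT array, number 37. It fell by 0.46 (SE 0.13, limma adjusted p = 0.0415) from C57 WT to 129 WT. In KO it ran from 8.64 through 9.21 to 9.55 in C57 and from 8.29 through 8.75 to 9.01 in 129. All 10 129 KO arrays lay below the C57 KO median and 2 of 10 below every C57 KO array. The fall there was -0.44 (SE 0.12, adjusted p = 0.0331).

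These calls of Camk4 lay close to the threshold. That between WT groups was lost when any 1 of 14 arrays was left out, 7 of C57 WT (25, 28, 29, 33, 34, 40 and 42) and 7 of 129 WT (71, 72, 74, 76, 77, 78 and 79). Over all arrays left out singly the difference ran from -0.56 to -0.41. That between KO groups was lost without any 1 of 9 arrays, 1, 5, 7, 8 and 17 of C57 KO and 51, 55, 56 and 59 of 129 KO. There the difference ran from -0.51 to -0.39 over all arrays left out singly. Within array sets 1 and 2 the differences were -0.55 and -0.41 between WT groups and -0.33 and -0.56 between KO groups.

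The other probe sets of Camk4 did not give the same direction. Probe set 1441974_at was lower in 129, by -0.67 (SE 0.23, limma adjusted p = 0.152) in WT and -0.36 (SE 0.23, adjusted p = 0.589) in KO. Probe set 1426167_a_at went the other way, from 5.64 ± 0.52 in C57 WT to 6.19 ± 0.17 in 129 WT (SD, n = 9 and 9), a difference of 0.55 (SE 0.16, adjusted p = 0.0691). In KO it was 5.57 ± 0.48 in C57 and 6.25 ± 0.18 in 129 (SD, n = 9 and 10), a rise of 0.68 (SE 0.16, limma adjusted p = 0.0096). Probe set 1421941_at differed by 0.33 (SE 0.12, adjusted p = 0.194) and 0.40 (SE 0.12, adjusted p = 0.0538), and 1452572_at by 0.02 (SE 0.08) and 0.11 (SE 0.08). The mean of the 5 probe sets differed by -0.05 (SE 0.07) between WT groups and by 0.08 (SE 0.06) between KO groups. The direction of Camk4 between strains thus depended on the probe set, and a change in its total transcript was not shown.

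The probe sets also moved against each other between C57 arrays. Over the 18 C57 arrays, with group means removed, the brightest correlated with 1426167_a_at at r = -0.78 and rho = -0.78 (permutation p = 2e-04, adjusted p = 0.0016 over 8 tests), at -0.95 within set 1 (n = 9) and -0.72 within set 2 (n = 9). With 1441974_at it correlated at r = 0.77 and rho = 0.60 (adjusted p = 0.0022), at 0.94 and 0.85 within the sets. Arrays of C57 that were high on the brightest probe set were thus low on one partner and high on another. Without the 2 outermost arrays these r were -0.78 and 0.61.

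In the 19 129 arrays the same correlations were -0.32 (adjusted p = 0.316) and -0.03 (adjusted p = 0.905), and neither passed. For 1426167_a_at r was 0.06 within set 1 (n = 10) and -0.69 within set 2 (n = 9). For 1441974_at it was -0.34 and 0.53, so within set 2 both had the sign seen in C57. Whether the correlations differed between the strains was not tested. The brightest probe set had an SD of 0.38 in C57 WT and 0.31 in C57 KO, and of 0.20 and 0.19 in the 129 groups. With 1421941_at and 1452572_at the C57 correlations were r = -0.52 (adjusted p = 0.0702) and r = -0.60 (adjusted p = 0.0221), and without the 2 outermost arrays -0.42 and -0.33.

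**Figure D4:**
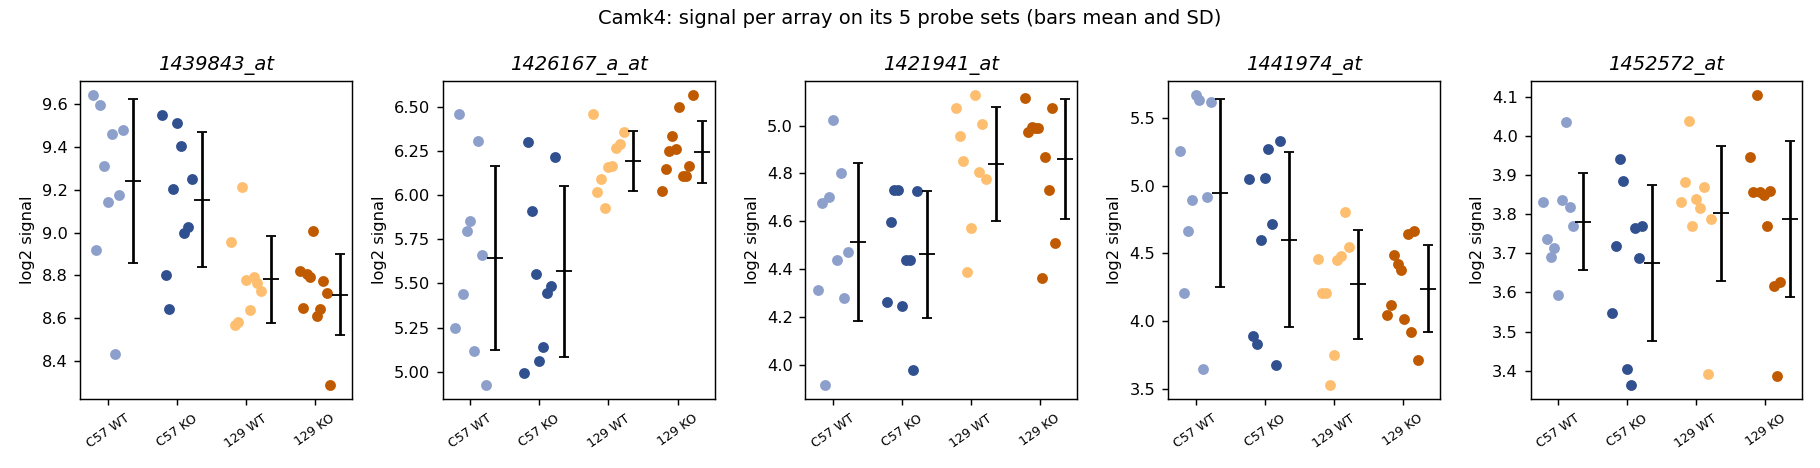
Log2 signal of Camk4 per array on each of its 5 probe sets (vertical axes, each panel with its own scale) in the 4 groups, with bars for the mean and SD. The brightest, 1439843_at, and 1441974_at sit lower in 129, 1426167_a_at and 1421941_at sit higher, and 1452572_at differs by 0.02 and 0.11, while C57 arrays scatter more than 129 arrays on 1439843_at and 1426167_a_at.

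The other kinases and phosphatase subunits did not pass between strains. Camk2a ran from 11.15 through 11.42 to 11.69 in C57 WT and from 11.47 through 11.55 to 11.80 in 129 WT. All 9 129 WT arrays lay above the C57 WT median, but 8 of 9 lay within the C57 WT range. The difference was 0.17 (SE 0.09, unadjusted p = 0.0539, limma adjusted p = 0.449). Between KO groups Camk2a ran from 11.24 through 11.49 to 11.76 in C57 and from 10.93 through 11.62 to 11.93 in 129, a difference of 0.10 (SE 0.08). The lowest of these 129 values came from array 59. Camk2b differed by 0.12 (SE 0.08) between WT groups and by 0.19 (SE 0.08, unadjusted p = 0.0302, limma adjusted p = 0.313) between KO groups.

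Among buffers and channels, Calb2 and Ryr3 had an unadjusted p under 0.05 between KO groups and not between WT groups. Calb2 differed by -0.013 (SE 0.08) between WT groups and by -0.24 (SE 0.08, unadjusted p = 0.0049, limma adjusted p = 0.107) between KO groups, where 5 of 10 129 KO arrays lay below every C57 KO array. With array set as a block this Calb2 difference passed, at -0.25 (SE 0.07, limma adjusted p = 0.0331). That block was defined from these same arrays, and Calb2 itself differed between the sets. Ryr3 differed by -0.02 (SE 0.07) and 0.16 (SE 0.07, unadjusted p = 0.0202, limma adjusted p = 0.255), and 5 of 10 129 KO arrays lay above every C57 KO array. By the mean of its probe sets Ryr3 passed between KO groups, at 0.18 (SE 0.05, limma adjusted p = 0.0177). These comparisons share the C57 KO arrays with those of KO against WT above. Atp2a3, the ER pump of few brain cells, differed by -0.08 (SE 0.09) and -0.18 (SE 0.09, unadjusted p = 0.0404, limma adjusted p = 0.360).

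Ryr1, Pvalb and Slc8a1 had wide errors between the strains as well. Ryr1 differed by -0.18 (SE 0.16), Pvalb by -0.07 (SE 0.17) and Slc8a1 by -0.19 (SE 0.14) between WT groups. Between KO groups they differed by -0.07 (SE 0.15), -0.22 (SE 0.16) and 0.13 (SE 0.14). Atp2b4 differed by 0.13 (SE 0.12) and -0.0082 (SE 0.12). The ER pump Atp2a2, the sensor Stim2 and the catalytic subunit Ppp3ca differed by 0.00059 (SE 0.06), 0.0029 (SE 0.05) and -0.0092 (SE 0.05) between WT groups, so their strain differences were near 0 with intervals inside 0.3.

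Other genes of calcium handling were read from a list of 81, which held further pumps and exchangers, ER calcium binders, sensors, calmodulin partners, voltage-gated channels and kinases. Of these, 74 had a probe set and 70 were tested. For KO against WT limma called 0 of 70 in each strain, with medians of 0.026 in C57 and -0.011 in 129. At an unadjusted p under 0.05 there were 11 of 70 in C57, or 15.7% (6.37% of all genes), and 2 of 70 in 129, or 2.86% (2.13% of all genes). Between WT strains 2 of 70 were called, or 2.86% (2.06% of all genes), both lower in 129. Between KO strains 3 of 70 were called, or 4.29% (3.06% of all genes), all lower in 129, so both shares lay near those of all genes. Saraf, an ER protein that limits store-operated entry, fell by 0.35 (SE 0.07, limma adjusted p = 0.0036) in WT, with -0.19 (SE 0.07, adjusted p = 0.155) in KO. Micu3, a brain-enriched partner of the mitochondrial uniporter, fell by 0.34 (SE 0.09, adjusted p = 0.0417) in WT and by 0.42 (SE 0.09, adjusted p = 0.0053) in KO.

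S100b and Itpkb were called between KO groups and not between WT groups. The change of a strain difference with genotype is, apart from its sign, the comparison of the KO differences of the strains. In that comparison limma called 0 of 70 (0.0153% of all genes), with a lowest adjusted p of 0.999. Such a change was thus not shown for either gene. S100b, a calcium-binding protein of astrocytes, fell by 0.25 (SE 0.05, limma adjusted p = 0.0053) from C57 KO to 129 KO, and differed by -0.02 (SE 0.06) between WT groups. A score over 8 astrocyte markers was 0.06 ± 0.06 for C57 KO and -0.05 ± 0.07 for 129 KO (SD, n = 9 against 10), with all 8 markers lower in 129 KO. Scores of oligodendrocytes and endothelium also differed between these groups, by -0.15 (8 of 9 markers lower) and -0.10 (7 of 7). The choroid plexus score differed by 0.18. The part of these scores in the S100b value was not tested. Itpkb, a relative of Itpka, fell by 0.36 (SE 0.08, adjusted p = 0.0104) in KO and differed by -0.29 (SE 0.09, adjusted p = 0.0653) in WT. By the mean of their probe sets the calls of Micu3 (adjusted p = 0.130 and 0.116) and Itpkb (adjusted p = 0.151) were lost. S100b passed by that mean (adjusted p = 0.0422). For Micu3 the brightest probe set had a mean signal of 7.14, and the other, at 2.60, lay below the filter. That other probe set differed by -0.08 in WT and 0.02 in KO. At such a level background was not separated from transcript, so the mean of probe sets cannot decide on the Micu3 calls.

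Values also varied with the array set. The sets were defined from these data, not by the study, and the labels do not say what the sample numbers stand for. Genes that vary together with the 40 genes used for the split are bound to differ between the sets. The p-values between sets therefore describe the split and are no independent test. With group means in the limma model, 5 of 29 calcium genes differed between the sets, or 17.2%, where 7.09% of the 13038 genes not used to find the sets did. Higher in set 2 were 4 of 29 (2.86% of all genes) and lower 1 of 29 (4.23% of all genes). Slc8a1 was 7.11 to 8.25 with a median of 7.88 in set 1 and 7.96 to 8.63 with a median of 8.35 in set 2. It rose by 0.48 from set 1 to set 2 (SE 0.07, limma adjusted p = 2.1e-06), by 0.45 to 0.51 in each of the 4 groups. A second Slc8a1 probe set above the filter differed by -0.08 (SE 0.04, adjusted p = 0.296). The actin 3' minus 5' difference ran from 1.06 to 2.76 in set 1 and from 0.91 to 1.94 in set 2. The step of Slc8a1 and its relation to that measure, given below, are therefore not independent findings.

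Stim1, the ER store sensor, was 6.49 to 7.08 with a median of 6.75 in set 1 and 6.91 to 7.41 with a median of 7.08 in set 2. Its rise was 0.33 (SE 0.05, limma adjusted p = 1.4e-06), between 0.24 and 0.37 in the 4 groups, and its other probe set rose by 0.22 (SE 0.05, adjusted p = 0.0042). For both genes the ranges of the sets overlapped in part. Camk2b rose by 0.22 (SE 0.05, adjusted p = 0.0022) and Calb2 by 0.19 (SE 0.05, adjusted p = 0.0176), and for each only 1 probe set was present. Ppp3cb fell by 0.12 (SE 0.03, adjusted p = 0.0041), and its other probe sets above the filter differed by -0.18 (called), 0.07 and 0.05, while 1 below the filter rose by 0.27 (adjusted p = 0.0003). The step between sets was larger in size than the KO difference of either strain for Slc8a1, Stim1, Camk2b and Ppp3cb, and for Calb2 it was smaller than the C57 difference of 0.24.

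**Figure D5:**
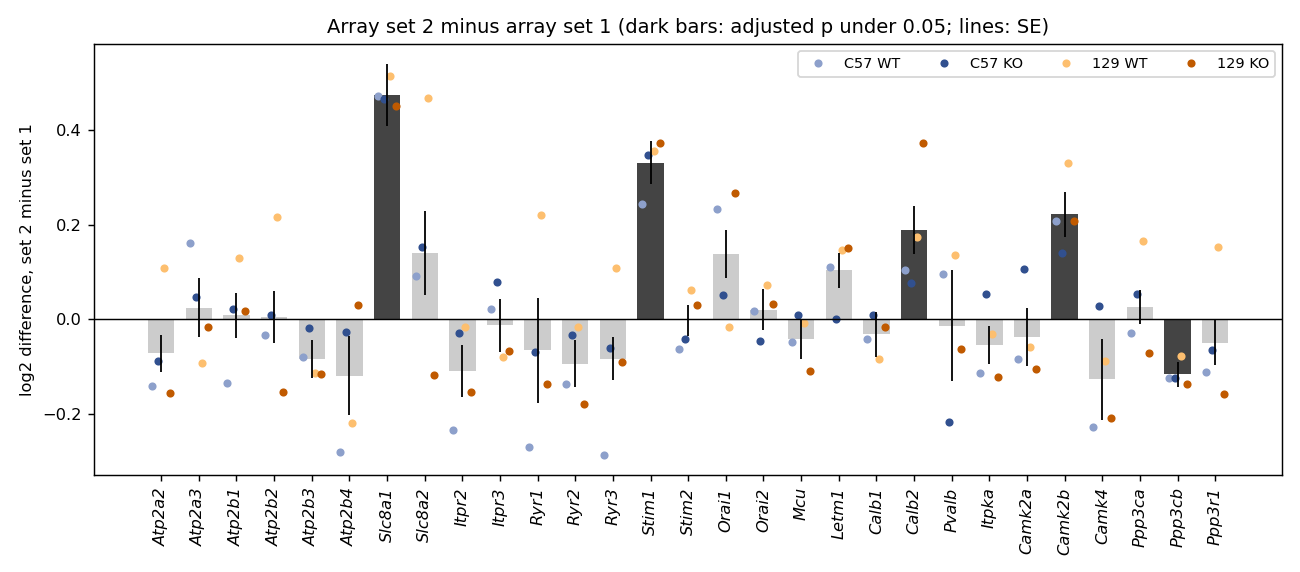
Log2 difference of array set 2 minus array set 1 (vertical axis) for the 29 calcium genes, with bars for the fitted difference, lines for its SE and points for the difference within each of the 4 groups. Dark bars mark the 5 genes called, Slc8a1, Stim1, Calb2 and Camk2b upward and Ppp3cb downward, and all 4 group points of each lie on the bar's side of 0.

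RNA quality, read as the 3' minus 5' actin difference, went with 7 of 29 genes within groups (adjusted p under 0.05 over the 116 pairs), 3 of them positively. In limma fits of the same measure adjusted over all genes, these 7 passed, or 24.1%, where 21% of all 13078 genes did, so the share among the calcium genes was near that of all genes. The positive ones were Itpr2 (r = 0.57, rho = 0.54), Atp2b3 (r = 0.52, rho = 0.54) and Camk2a (r = 0.47, rho = 0.49). The negative ones were Letm1 (r = -0.69, rho = -0.60), Slc8a1 (r = -0.65, rho = -0.58), Ppp3ca (r = -0.55, rho = -0.49) and Slc8a2 (r = -0.53, rho = -0.52). Slc8a1 and Slc8a2 encode sodium-calcium exchangers and Letm1 a mitochondrial exchanger. Without the 2 outermost arrays r was -0.49 for Letm1, -0.52 for Slc8a1, -0.40 for Ppp3ca and -0.48 for Slc8a2. With set means also removed, Itpr2 (r = 0.57, adjusted p = 0.0104) and Camk2a (r = 0.46, adjusted p = 0.0281) passed. No calcium gene of the list passed with the hippocampus score (0 of 29) or the thalamus score (0 of 29), in the permutation test or by limma over all genes, where 0.444% and 0.00765% of all genes passed.

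The spread between arrays of 1 group differed between the genes. The SD within groups was largest for Pvalb (0.37), Ryr1 (0.36), Slc8a1 (0.32), Slc8a2 (0.29), Camk4 (0.28) and Atp2b4 (0.27). It was smallest for Ppp3cb (0.087), Stim2 (0.087) and Ppp3ca (0.10). Standard errors of the KO differences in C57 therefore ran from 0.05 to 0.17, with a median of 0.078, and a difference of a given size was seen with less error in the calcineurin subunits than in Pvalb or Ryr1.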

How the data were processed

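The deposited table held 1 column for each of 37 arrays, with 45101 probe sets of which 64 were Affymetrix controls. Its deposited values were log2 signals, 1 per probe set and array, which the authors had summarized from the probes, with array medians from 4.30 to 4.36. No source used here says how arrays were scaled to each other. MAS5 and GCRMA are named in the submitters' processing notes, with neither version nor role. They were analysed unchanged. By the platform annotation, 34945 probe sets had 1 symbol, 932 several and 9160 none, and only the first kind was used. Each gene was read by the probe set with the highest mean. A gene was tested where a group mean reached the 40th percentile of probe set means.

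Groups and array numbers came from the sample titles. limma 3.58.1 (R 4.3.3) fitted 4 group means to all 37 arrays, with 2-sided Benjamini-Hochberg adjusted p-values over 13078 genes. The fit was tested on simulated data. Correlations used 100000 permutations within groups, for which the smallest possible p is 1e-05, in Python 3.11.15 with NumPy 2.4.6, SciPy 1.17.1 and pandas 2.3.3. Plots used matplotlib 3.10.9.

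Full values were given for genes called in any comparison and for the 2 per role with the largest difference in KO against WT over both strains or in 129 WT against C57 WT, and for other calcium genes only where called. Atp2b1 was added after its values were seen, as were the comparison of array sets, the limma fits of each measure over all genes, the correlations between probe sets of Camk4 and the probe sets of the other calcium genes. The members and lists were chosen with earlier results of these data known. Alternatives were other filters, scalings, the mean of probe sets, other limma settings, array weights, a block for array set, the sets taken singly, marker or actin covariates, and each array left out.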

Additional observations from a re-analysis of the deposited data

Results flagged for a closer look

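Each of the 29 genes was examined in each of the 4 groups for an array whose gap to its nearest neighbour took up more of the group's range than Dixon's 95% limit allows. Of 116 such tests 13 passed, in 6 arrays. The limit by itself flags about 1 in 20 groups by chance, but these tests share arrays. Arrays 53 and 59 gave 4 flagged values each. The share flagged over all genes was not computed, so an excess among the calcium genes was not shown. No explanation was tested.

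Array 53 of 129 KO was the highest of its group for the ER pump Atp2a2 (11.43, next 11.09), the plasma membrane pump Atp2b2 (10.50, next 10.05), the exchanger Slc8a2 (6.11, next 5.57) and the calcineurin subunit Ppp3r1 (11.47, next 11.02). Array 59 of 129 KO was the lowest for the pump Atp2b3 (8.95, next 9.26), the ryanodine receptors Ryr1 (3.52, next 4.26) and Ryr2 (7.63, next 8.03), and the kinase Camk2a (10.93, next 11.40). The score over 9 tested markers of cortical excitatory neurons was -0.38 on array 59 and the hippocampus score -0.21, each the lowest of the 37 arrays. Calbindin, Calb1, was lowest on 129 KO array 57 (9.68, next 10.00).

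Array 73 of 129 WT was the lowest for the exchanger Slc8a1 (7.11, next 7.83) and for Letm1 (6.40, next 6.67), and its actin 3' minus 5' difference of 2.76 was the highest of all arrays. In C57, array 17 of KO was lowest for Atp2b3 (9.15, next 9.34) and array 37 of WT for Ppp3ca (11.10, next 11.28). Array 37 had the lowest striatum score of its group, -0.38.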

How the results depend on the processing

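No paired analysis was possible because no sample number is shared between groups. For KO against WT, the count of the 29 genes called was 0 in both strains under every alternative run. Between WT strains the count of 1 was 0 by the mean of probe sets, in array set 1 or 2 alone and with only the groups compared, and 0 to 1 with each array left out. Between KO strains it was 0 with array weights and in either set alone, 2 with array set as a block (Camk4 and Calb2), and 0 to 1 with each array left out. With the mean of probe sets that count stayed at 1 but the gene was Ryr3 in place of Camk4. Without array 5 of C57 KO it also stayed at 1, but Calb2 was called (-0.28, limma adjusted p = 0.0452) and Camk4 was not. Camk4 had the opposite sign between WT strains on 3 probe sets (0.33, 0.55 and 0.022), of which the last value was smaller than its SE. Between KO strains it had the opposite sign on the same 3 (0.40, 0.68 and 0.11) and by the mean of probe sets (0.077). Slc8a1 reversed for KO against WT in 129 on 2 probe sets (-0.19 and -0.14) and between WT strains on 1 (0.13). Between array sets the count of 5 was 9 by the mean of probe sets, and 6 without array 10 of C57 KO, which added Letm1. Shares of all genes under these alternatives are not given here, so an excess among the calcium genes under them was not shown. Of 116 correlations 11 passed, 4 with set means removed and 5 without the 2 outermost arrays. By limma over all genes Ryr3 and Orai2 lost theirs with the striatum score. The cause of these changes was not tested. Fits within a set also held fewer arrays, and array number was not separated from the set itself. Quantile normalization and median centring moved the median of all genes by less than 0.01. At signals near the filter at 3.599, as for Itpr3, background was not separated from transcript.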
